A study of Mus musculus with 27 samples.

Results

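The comparison described here set the gastrocnemius muscle of mice fed a high-fat diet with ursolic acid (UR) against the gastrocnemius of mice fed a normal diet (ND). Its members were the 6 arrays that the labels assign to these diets in muscle, of 27 arrays in the series, and all 9313 genes with a detected probe in muscle. The animals were male C57BL/6J mice that arrived at 4 weeks of age and spent 1 week on the AIN-76 semi-purified diet. UR mice then received, for 16 weeks, a diet with 20% fat and 1% cholesterol to which 0.05% ursolic acid by weight had been added, and ND mice ate the normal diet over the same time. A further group (HFD) received the fat and cholesterol without ursolic acid. UR mice thus differed from ND mice in both the fat diet and the compound, and the contribution of each cannot be told apart from the UR and ND arrays. The values of the HFD arrays are therefore given beside them. Ursolic acid is a pentacyclic triterpenoid of plants. Each array carried RNA pooled from several mice, 3 pools for each diet, so n counts pools and every error measures the spread between pools. The sources used here do not give the mice in each pool. The mice were fasted before they were killed, at an hour of the day that these sources do not give.

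The gastrocnemius is a calf muscle of mice made mostly of fast-twitch fibres, which rely on glycolysis, with a smaller share of slow and oxidative fibres. Muscle, like most tissues, holds a circadian clock. In it the activators CLOCK and BMAL1 (the product of Arntl) bind E-boxes, with the letters CACGTG, and switch on the genes of their own repressors, the PER and CRY proteins, and of REV-ERB nuclear receptors, which in turn repress Arntl. Output factors such as DBP bind D-boxes and carry the rhythm to other genes. Feeding and fasting also reset this clock and set the balance between protein synthesis and breakdown in the fibre.

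Signals were quantile-normalized over the 9 muscle arrays and are given on the log2 scale, in the order of the replicate numbers. The share of the 45281 probes detected was 37.6% to 38.1% on UR arrays, 35.5% to 35.8% on HFD arrays and 35.8% to 36.7% on ND arrays, so UR lay above both, and the part of this in the results was not tested. Fibre genes marked the tissue as labelled: 14 of 15 fibre markers were detected on all 9 arrays, and the satellite cell genes Pax7 and Myf5 were detected on none. In bulk tissue, fewer cells of a type and less RNA per cell cannot be told apart. Each gene was tested by limma, two-sided, in a fit of the 9 arrays, with Benjamini-Hochberg adjustment over all genes tested, and "rose", "fell" and "called" stand for an adjusted p under 0.05. With 3 arrays against 3, an exact permutation test of a single gene cannot give a p below 0.10. Between UR and ND, 1598 of 9313 genes were called (17.2%). Of these, 873 were higher with UR (9.37% of genes tested) and 725 lower (7.78%). Most changes were small on this scale, which had no background correction: 5 genes rose and 3 fell by at least 1 on the log2 scale. With normexp background correction, the median log2 fold change of the clock repressors was 0.82 instead of 0.53. That of the adipocyte markers was 1.11 instead of 0.47, and that of glycolysis genes stayed at -0.06. Sizes of change thus depend on this step. All 3 UR arrays lay above all 3 ND arrays for 1670 genes (17.9%) and below them for 1780 (19.1%). The median difference over all genes was -0.0036. With arrays scaled to a common median instead of by quantiles, that median shifted to -0.10 and the split became 326 higher and 1744 lower, so small changes have no settled direction. Under that scaling the calls of Nr1d2, Usp2, Tpm1, Fbxo40, Mtor, Gbe1, Atp5a1, Cat, Ccl11, Cxcl12, Adam9, Cd74, Sparc, Chrnb1 and Smtn, all named below as higher, were lost. Robust variance estimates ended the calls of Per1, Usp2, Ppp1r3c, Ucp3, Col3a1 and Cd74, beside those given with their genes. Without the array of UR pool 1, 2 or 3, the calls numbered 1028, 846 and 1063.

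Clock genes had the largest increases, led by Dbp and Ciart. Dbp, which encodes the D-box binding activator, had 12.72, 13.08 and 13.03 with UR, against 10.99, 11.09 and 10.65 with the HFD and 10.61, 10.44 and 10.47 with the ND. Every UR array lay above every other array by more than the spread within any diet, and the log2 fold change of UR against ND was 2.44 (standard error 0.11, n = 3 pools each, limma adjusted p = 6.03e-09), or 5.42-fold. Ciart, the product of which (CHRONO) represses CLOCK and BMAL1, had 9.64, 10.01 and 9.96 with UR, 8.04, 8.16 and 8.14 with the HFD and 7.56, 7.81 and 7.77 with the ND, or 4.47-fold (log2 fold change 2.16, standard error 0.09, limma adjusted p = 6.03e-09), and its 3 kept probes gave 1.01 to 2.16. Per2, a repressor of the same activators, had 9.83, 10.13 and 10.07 with UR, 8.49, 8.48 and 8.77 with the HFD and 8.35, 9.35 and 8.77 with the ND. Its log2 fold change was 1.19 (standard error 0.18), and the ND arrays of Per2 were far more spread than those of Dbp.

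Of the 10 measured clock repressors, 7 rose and 1 fell, with a median log2 fold change of 0.53 against the -0.0036 of all genes. Per1, Per2, Per3 and Nr1d2, among the 7, are named by the study from these samples as raised by UR against HFD. The count is thus not independent evidence of their direction. Per3 also passed the detection filter through its UR arrays alone, which favoured a rise. Bhlhe40, the product of which competes with the activators for E-boxes, had 11.96, 12.09 and 12.41 with UR, 10.76, 10.92 and 11.02 with the HFD and 11.20, 11.24 and 11.42 with the ND, so its UR arrays were highest and its HFD arrays lowest (log2 fold change against ND 0.87, standard error 0.10). Nr1d1, which encodes REV-ERB alpha, had 9.12, 9.07 and 9.18 with UR, against 8.72, 8.15 and 8.39 with the ND, and its HFD arrays, at 8.80, 9.10 and 8.70, reached into the UR range (0.70, standard error 0.12). Nr1d2, which encodes REV-ERB beta, rose by 0.41 (standard error 0.08) on its brightest probe, with 0.08 (adjusted p over probes 0.445) on its other kept probe. Per3 rose by 0.38 (standard error 0.07), but no ND or HFD array detected it. With no filter on detection, a brighter probe that the filter removes stood for Per3, at 0.09 (limma adjusted p = 0.487). The call thus rests on which probe stands for the gene. Against the higher of the lowest detected signal of an ND array and the probe's own signal there, Per3 was at least 1.18-fold higher with UR on the kept probe. Per1 had 10.40, 10.37 and 10.47 with UR, against 9.72, 10.20 and 9.38 with the ND (log2 fold change 0.65, standard error 0.17, limma adjusted p = 0.0199), and its dimmest kept probe went the other way, by -0.24 (adjusted p over probes 0.0260). The call of Per1 was lost without UR replicate 2 (adjusted p = 0.0551), UR replicate 3 (0.0610) or ND replicate 3 (0.0791). Cry2 changed by 0.20 (adjusted p = 0.116) and the kinase gene Csnk1d by -0.0068. Csnk1e, which encodes a kinase that marks PER proteins for turnover, fell by 0.18 (adjusted p = 0.0391), a call lost without any one of UR replicates 2 and 3 and the 3 ND replicates. The other kept probe of Csnk1e gave 0.20 (limma adjusted p over probes 0.228).

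The activators went the opposite way to most repressors. Arntl had 9.29, 9.12 and 9.05 with UR, against 9.87, 9.87 and 9.70 with the HFD and 9.97, 9.62 and 9.79 with the ND, so the UR arrays were below all others. The log2 fold change of Arntl against ND was -0.64 (standard error 0.09, limma adjusted p = 4.17e-04). Rora, the product of which drives Arntl through the element that REV-ERB proteins occupy, fell by 0.34 (standard error 0.05). Clock changed by -0.14 (adjusted p = 0.0988) with overlapping arrays, and by -0.30 (0.0277) with arrays scaled to a common median. Of the 13 measured clock output factors, 3 rose and 2 fell, with a median of 0.01 that turned to -0.15 (2 rose and 3 fell) with arrays scaled to a common median. Besides Dbp, Coq10b, which encodes a coenzyme Q binding protein, had 10.35, 10.57 and 10.50 with UR, 9.58, 9.42 and 9.65 with the HFD and 9.75, 9.90 and 9.74 with the ND (0.68, standard error 0.08). The ubiquitin protease gene Usp2 rose by 0.42 (standard error 0.11, adjusted p = 0.0200), a call lost without UR replicate 2 (0.0594), UR replicate 3 (0.0687), ND replicate 1 (0.0734) or ND replicate 3 (0.0718). Sesn1, which encodes sestrin 1, a leucine sensor that restrains the growth kinase mTOR, fell by 0.69 (standard error 0.10). Gadd45a, a stress-induced gene, fell by 0.40 (standard error 0.10), although its UR and ND arrays overlapped and the call was lost without UR replicate 1 (0.0754), UR replicate 2 (0.0665), ND replicate 1 (0.0605) or ND replicate 2 (0.0645). Tef, a relative of Dbp, changed by 0.29 (adjusted p = 0.0574) and passed without UR replicate 1 (0.0410) or ND replicate 2 (0.0242), and Nampt, Klf9, Klf10, Klf15, Klf2, Tsc22d3 and Cdkn1a were not called. The dimmer probes of Cdkn1a, which encodes the cell cycle inhibitor p21, gave -0.36 (adjusted p over probes 0.0261) and -0.27 (0.0199), and its value passed with the mean of kept probes (-0.29, 0.0368) and with arrays scaled to a common median (-0.38, 0.0178). Klf2, one of the genes not called, had 10.89, 10.86 and 10.98 with UR, 10.30, 9.94 and 10.61 with the HFD and 10.70, 11.15 and 10.64 with the ND. Its UR arrays thus stood above the HFD arrays and inside the ND range.

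**Figure D1:**
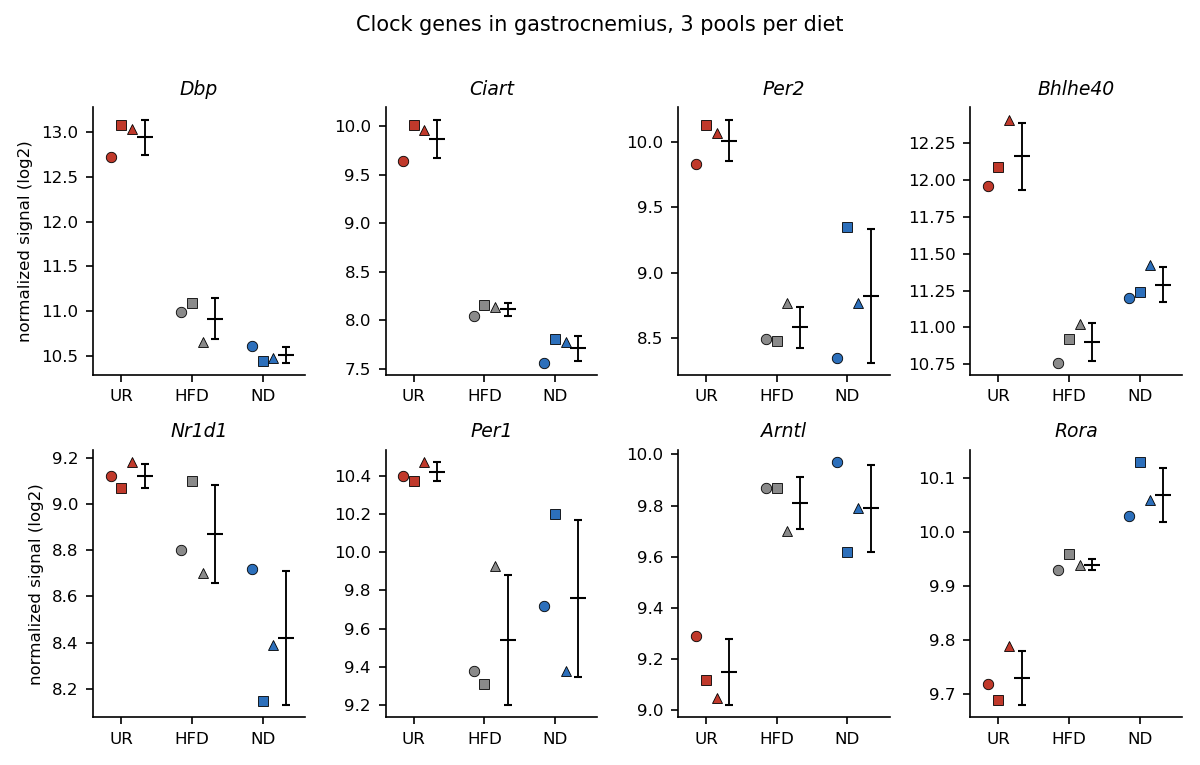
Normalized signal (log2) of 8 clock genes in gastrocnemius for the UR, HFD and ND pools (points, 1 per array; marker shapes stand for replicate numbers 1 to 3; bars are the mean and SD, n = 3). Dbp, Ciart, Per2 and Bhlhe40 were highest on every UR array, and Arntl and Rora lowest.

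The sequences below show where the clock's own binding letters lie next to the genes that moved. Promoter windows of RefSeq (GRCm38.p6), 300 bases around a start site, were held for 13 of the 15 called clock genes, in 19 windows, and Per2 and Bhlhe40 had none. They were searched on both strands for the E-box CACGTG, the D-boxes TTATGTAA and TTACGTAA and the ROR and REV-ERB element TAGGTCA. The E-box lay in 3 of the 19 windows, against 7.15% of all 32851 windows of the same length, TTATGTAA in 2 against 0.938%, TAGGTCA in 1 against 2.61% and TTACGTAA in 0 against 0.119%. Ciart held 3 E-boxes, at positions -116, -58 and -44 from its start. Per1 held 1 E-box at -166, and Coq10b 1 at -78 with a D-box on the other strand at -162. Per3 held 2 D-boxes, at -205 and -158, and Arntl had TAGGTCA at position 31. Capitals mark the matches, each line runs 5′ to 3′ on the gene's strand, and the bases between are shown to give their spacing.
Ciart: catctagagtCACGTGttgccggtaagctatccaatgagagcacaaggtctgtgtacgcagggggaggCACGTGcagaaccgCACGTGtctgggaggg
Per1: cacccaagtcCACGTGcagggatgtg
Coq10b: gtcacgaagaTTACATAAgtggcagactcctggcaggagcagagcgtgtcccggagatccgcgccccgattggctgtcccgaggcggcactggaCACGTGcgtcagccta
Per3: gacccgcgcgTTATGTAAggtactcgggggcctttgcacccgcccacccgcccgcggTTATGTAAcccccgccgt
Arntl: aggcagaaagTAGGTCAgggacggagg
These stretches lie at chr3:95882257-95882354 on the minus strand (Ciart), chr11:69098773-69098798 on the plus strand (Per1), chr1:55052598-55052707 on the plus strand (Coq10b), chr4:151044806-151044880 on the minus strand (Per3) and chr7:113207531-113207557 on the plus strand (Arntl). No window of Dbp, Nr1d1, Nr1d2, Rora, Usp2, Sesn1, Gadd45a or Csnk1e held any of the 4 motifs, which says only that these letters are not in these windows. A match is a description of the sequence and not a binding site.

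Beyond the clock, 26 lists of muscle, metabolic and stress genes were described, and the plot of called genes per list sets them against the background of 9.37% higher and 7.78% lower. The lists with the highest shares of genes that rose, after the clock repressors, were collagens and matrix proteins (20 of 37), slow and oxidative fibre genes (6 of 15) and chemokines and cytokines (6 of 17). Those with the highest shares that fell, after the core clock activators, were atrophy and autophagy genes (8 of 22), PPAR target genes (5 of 14) and fast fibre genes (6 of 17). For complex I of the respiratory chain, 1 of 34 genes rose and 1 fell, below the background both ways, although 0 rose and 8 fell with arrays scaled to a common median (median -0.16, against -0.10 over all genes).

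**Figure D2:**
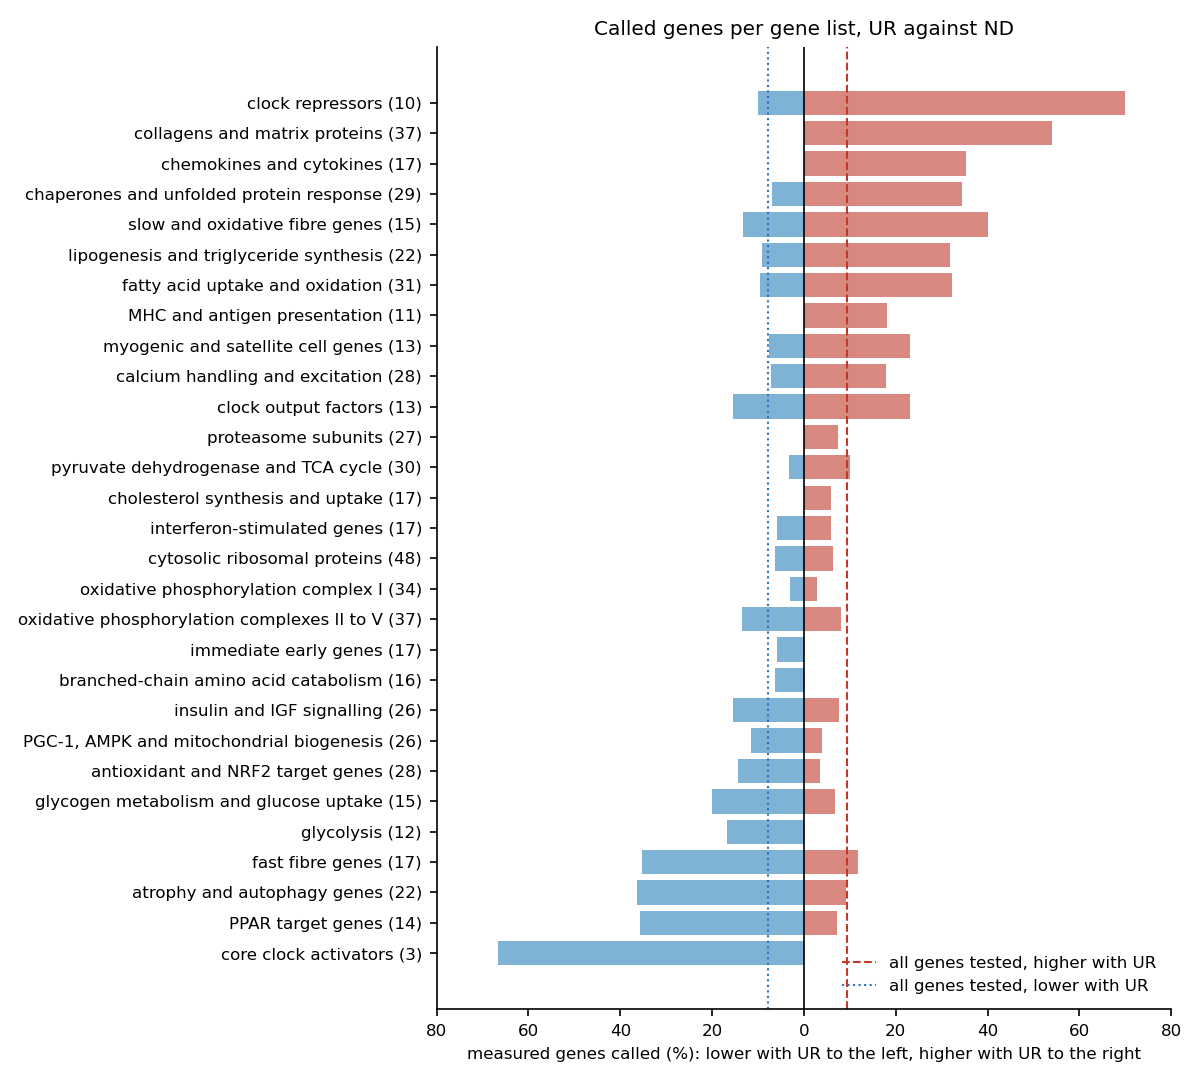
Share of measured genes called in each of 29 gene lists (number of measured genes in brackets), UR against ND, with genes lower with UR to the left and higher with UR to the right. Dashed and dotted lines mark the share of all 9313 genes tested, 9.37% higher and 7.78% lower. Clock repressors and matrix proteins reached furthest to the right, and core clock activators, atrophy genes and fast fibre genes were among the furthest to the left.

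Genes of fast glycolytic fibres fell in part, while those of slow and oxidative fibres moved both ways. Actn3, which encodes the alpha-actinin found only in fast fibres, had 10.62, 9.18 and 10.07 with UR, 11.22, 10.54 and 10.39 with the HFD and 11.85, 11.23 and 11.21 with the ND. UR arrays were all below ND arrays, with HFD arrays between and overlapping both, and the log2 fold change was -1.48 (standard error 0.29, limma adjusted p = 0.00387). All 3 kept probes of Actn3 were called lower, by -0.76 to -1.48. Pvalb, which encodes the calcium buffer parvalbumin of fast fibres, had 13.62, 12.93 and 13.28 with UR, 13.90, 13.35 and 13.12 with the HFD and 14.27, 14.11 and 14.02 with the ND (-0.86, standard error 0.17). Mybpc2, the fast isoform of myosin-binding protein C, had 11.38, 10.94 and 11.16 with UR, 11.68, 11.30 and 11.14 with the HFD and 12.17, 11.92 and 11.65 with the ND (-0.75, standard error 0.14). In both genes the mean of the HFD arrays (13.45 for Pvalb, 11.37 for Mybpc2) was nearer to the UR mean (13.28 and 11.16) than to the ND mean (14.13 and 11.91), while HFD replicate 1 lay above all UR arrays. Ckm, the muscle creatine kinase, fell by 0.28 (standard error 0.05), and Mylpf and Myoz1 also fell. Myh4, the myosin heavy chain of the fastest fibres, named here after its values were seen, varied widely between pools. It was detected on 2 of the 3 UR arrays and had 9.45, 7.36 and 9.60 with UR, 11.38, 9.87 and 9.37 with the HFD and 11.87, 9.25 and 10.66 with the ND, and its log2 fold change of -1.79 (standard error 0.64) had an adjusted p of 0.0698 and passed with arrays scaled to a common median (0.00566) and without ND replicate 2 (-2.46, 0.0228). Myh1, the heavy chain of intermediate fast fibres, changed by -0.10 (adjusted p = 0.395), with -0.32 on its other kept probe (adjusted p over probes 0.0317) and -0.26 (0.0379) with arrays scaled to a common median. In all, 6 of 17 fast fibre genes fell and 2 rose (Tpm1 by 0.36, standard error 0.06, and Tnnt3), with a median of -0.10. Robust variance estimates ended the calls of Actn3 (adjusted p = 0.0657) and Pvalb (0.0658). Of 15 fibre markers 1 rose and 4 fell, with summed linear signals of 528000 to 532000 on UR arrays, 524000 to 545000 on HFD arrays and 538000 to 557000 on ND arrays, and their part in the result was not tested.

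Among 15 slow and oxidative fibre genes, 6 rose and 2 fell, and the median of 0.06 turned to -0.0072 with arrays scaled to a common median, when 2 rose and 2 fell. Without UR replicate 2, ND replicate 1 or ND replicate 2, 3 rose. The genes that rose were Csrp3, Ankrd2, Casq2, the slow myosin light chain gene Myl3 and the calcium pump regulators Pln and Sln. Csrp3, the mechanosensor muscle LIM protein, had 15.35, 15.16 and 14.93 with UR, 15.33, 15.43 and 15.24 with the HFD and 14.50, 14.52 and 14.79 with the ND. Both fat-fed groups were above ND, and the log2 fold change of UR against ND was 0.54 (standard error 0.09). Ankrd2, a stretch-responsive ankyrin protein, rose by 0.28 (standard error 0.06) with its HFD arrays, at 14.45, 14.44 and 14.46, above all others. Casq2, the calsequestrin of slow and cardiac muscle, rose by 0.40 (standard error 0.07). Scaled to a common median, Ankrd2 and Casq2 were not called. The slow myosin gene Myh7 was not called. Tpm3, the slow tropomyosin, fell by 0.15 (standard error 0.04), a call lost without any 1 UR array or without ND replicate 2 (adjusted p = 0.0601 to 0.0980). Its 5 other kept probes gave -0.08 to 0.06, and the value was -0.02 with the mean of kept probes and -0.04 with cyclic loess.

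**Figure D3:**
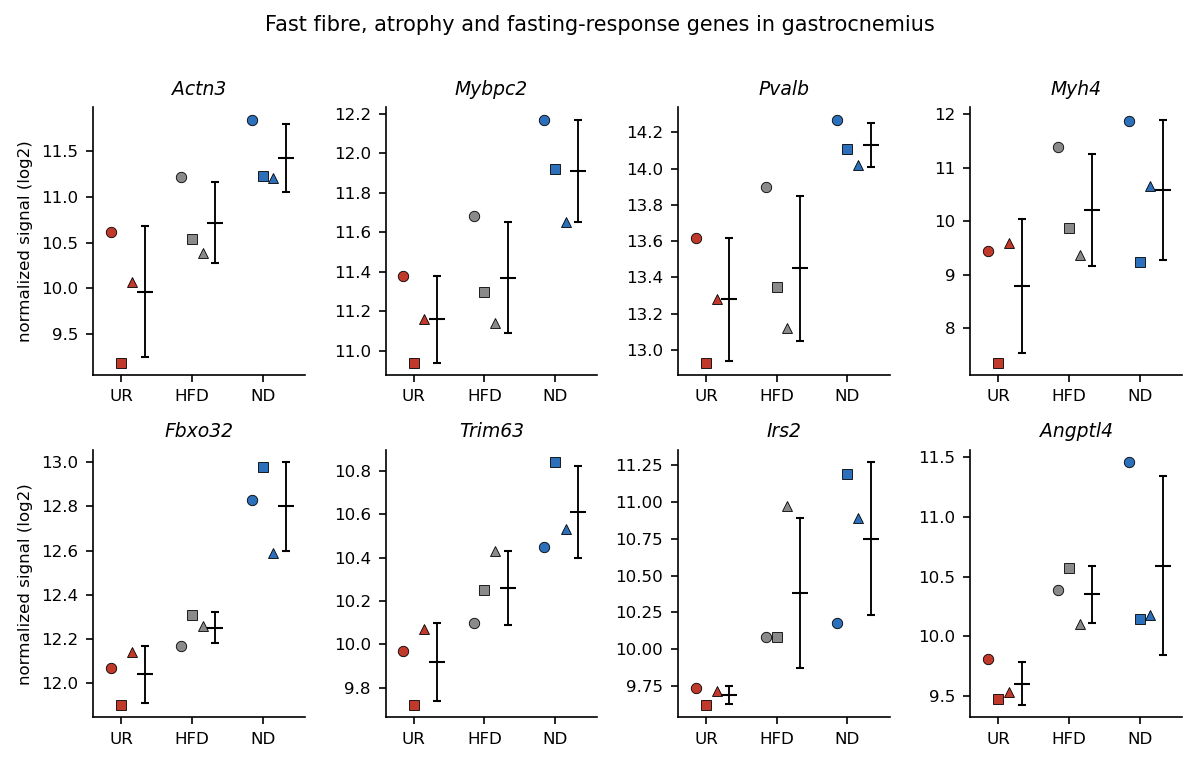
Normalized signal (log2) of fast fibre genes (Actn3, Mybpc2, Pvalb, Myh4), ubiquitin ligase genes (Fbxo32, Trim63) and fasting-response genes (Irs2, Angptl4) in gastrocnemius for UR, HFD and ND pools (points, 1 per array; marker shapes stand for replicate numbers 1 to 3; bars are the mean and SD, n = 3). UR arrays lie below ND arrays in each panel except that of Myh4, where they overlap.

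Genes of muscle protein breakdown fell in part with UR, among them those of its best known ubiquitin ligases. Fbxo32, which encodes the ubiquitin ligase atrogin-1, had 12.07, 11.90 and 12.14 with UR, 12.17, 12.31 and 12.26 with the HFD and 12.83, 12.98 and 12.59 with the ND. HFD arrays lay just above UR arrays and both lay below ND, and UR against ND gave -0.76 (standard error 0.09, limma adjusted p = 1.33e-04), or 0.589-fold, with all 3 kept probes called lower. Trim63, which encodes the ligase MuRF1, had 9.97, 9.72 and 10.07 with UR, 10.10, 10.25 and 10.43 with the HFD and 10.45, 10.84 and 10.53 with the ND (-0.69, standard error 0.11). Fbxo30, which encodes a further ligase of this kind, fell by 0.46 (standard error 0.06). Fbxo40, a ligase that in cultured muscle cells targets the insulin receptor substrate IRS1, rose by 0.43 (standard error 0.07), though its 3 other kept probes gave -0.0026 to 0.22 and were not called. Foxo1, the transcription factor that switches on Fbxo32 and Trim63, is named here after its values were seen. It fell by 0.42 (standard error 0.11, adjusted p = 0.0194), a call lost without UR replicate 2 (0.0741), UR replicate 3 (0.0600), ND replicate 2 (0.0764) or ND replicate 3 (0.0618). Of 22 measured atrophy and autophagy genes, 8 fell and 2 rose (median -0.11), against 3 that fell without UR replicate 2 and 5 without UR replicate 3.

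Irs2, which encodes an adaptor of the insulin receptor that rises in fasting, had 9.74, 9.62 and 9.72 with UR, 10.08, 10.08 and 10.97 with the HFD and 10.18, 11.19 and 10.89 with the ND. UR arrays agreed closely and lay below all others, and the log2 fold change was -1.06 (standard error 0.23, limma adjusted p = 0.00696). In the insulin and IGF list of 26 genes, 4 fell and 2 rose, against 8 and 0 with arrays scaled to a common median. Eif4ebp1, the translation repressor that mTOR switches off, fell by 0.28 (standard error 0.07), a call lost without UR replicate 2 (0.0538). Mtor itself rose by 0.33 (standard error 0.06) on its brightest probe, with -0.09 (adjusted p over probes 0.372) on the other. Bcl2l11, which encodes the pro-apoptotic protein BIM, had 8.59, 8.60 and 8.66 with UR, 8.65, 8.93 and 8.75 with the HFD and 9.40, 9.43 and 9.29 with the ND (-0.76, standard error 0.07). Again the HFD arrays were close to UR and not to ND. With robust variance estimates Irs2 was not called (adjusted p = 0.0823).

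Fuel genes moved in part and in both directions. Of 14 PPAR target genes, which respond to fatty acids and to fasting, 5 fell and 1 rose, with 2 that fell without either UR replicate 2 or UR replicate 3. Angptl4, an inhibitor of lipoprotein lipase, had 9.81, 9.47 and 9.53 with UR, 10.39, 10.57 and 10.10 with the HFD and 11.46, 10.14 and 10.18 with the ND. Its log2 fold change of -0.99 (standard error 0.25) rested partly on ND replicate 1, without which it was -0.55 (limma adjusted p = 0.00824), and the call was lost without UR replicate 2 (0.0668) or UR replicate 3 (0.0527) and with robust variance estimates (0.128). The mitochondrial carrier gene Ucp3 fell by 0.52 (standard error 0.13) on its brightest probe and by 0.47 on the other, with a call lost without UR replicate 2 (0.0539) or UR replicate 3 (0.0545). Ehhadh, an enzyme of peroxisomal oxidation, fell by 0.38 (standard error 0.09), lost without UR replicate 2 (0.0637). Plin4, a lipid droplet coat protein, had 13.42, 13.46 and 13.50 with UR, 13.44, 13.49 and 13.45 with the HFD and 13.82, 13.94 and 13.57 with the ND (-0.32, standard error 0.07), so that UR and HFD arrays overlapped fully below ND.

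Of 31 genes of fatty acid uptake and oxidation, 10 rose and 3 fell with a median of 0.10, which turned to -0.06 (2 rose and 4 fell) with arrays scaled to a common median. Hadhb, the beta subunit of the mitochondrial trifunctional protein, had 14.58, 14.59 and 14.63 with UR, 14.13, 14.22 and 14.12 with the HFD and 14.18, 14.35 and 14.13 with the ND, so UR stood apart from both diets (0.38, standard error 0.05). Hadha, the alpha subunit of the same complex, named here after its values were seen, went the other way. It had 8.46, 8.27 and 8.03 with UR, 8.21, 8.87 and 8.35 with the HFD and 9.31, 8.92 and 8.73 with the ND (-0.73, standard error 0.16, limma adjusted p = 0.00791, and 0.0720 with robust variance estimates), on the only kept probe. Decr1, which reduces unsaturated intermediates, rose by 0.45 (standard error 0.07), with UR arrays at 11.93 to 11.99 and HFD arrays at 11.95 to 12.03, both above ND arrays at 11.33 to 11.63. Crat, carnitine acetyltransferase, rose by 0.33 (standard error 0.06), Acadvl, the very long chain dehydrogenase, by 0.23 (standard error 0.04), and Fabp3, the fatty acid carrier of muscle, by 0.24 (standard error 0.05). The other kept probes of Crat gave 0.18 and 0.08 (limma adjusted p over probes 0.104 and 0.523). With arrays scaled to a common median, Crat, Acadvl and Fabp3 were not called.

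Of 12 glycolysis genes, 2 fell and 0 rose at an adjusted p under 0.05, against 5 and 0 with arrays scaled to a common median. Gpd1, glycerol phosphate dehydrogenase, fell by 0.27 (standard error 0.06), and Eno3, muscle enolase, by 0.17, a call lost without UR replicate 2, UR replicate 3, ND replicate 1 or ND replicate 3 (adjusted p = 0.0730 to 0.119). Of 15 genes of glycogen and glucose uptake, 3 fell and 1 rose. Ppp1r3c, which targets a phosphatase to glycogen and favours its synthesis, had 13.35, 13.27 and 13.34 with UR, 13.58, 13.61 and 14.00 with the HFD and 13.52, 13.90 and 14.26 with the ND, a log2 fold change of -0.57 (standard error 0.14), lost without UR replicate 2 (limma adjusted p = 0.0546). Phkg1, the catalytic subunit of phosphorylase kinase, fell by 0.36 (standard error 0.06), and Pgm1, phosphoglucomutase, by 0.29 (standard error 0.04). The other kept probe of Pgm1 gave -0.07 (limma adjusted p over probes 0.416). Ppp1r3c, Phkg1 and Pgm1 belong to glycogen turnover. On the list, 4 of 15 genes had all UR arrays below all ND arrays, against 19.1% of all genes. Of the 1598 called genes, 1559 had no overlap between UR and ND arrays, so this separation adds nothing to the calls. Gbe1, the branching enzyme, rose by 0.21 (adjusted p = 0.0446), a call lost when 7 of the 9 arrays were left out in turn (adjusted p = 0.0507 to 0.168).

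Genes of the respiratory chain and TCA cycle were near the background. In complexes II to V, 3 of 37 genes rose and 5 fell (median 0.0023), against 0 and 10 with arrays scaled to a common median (median -0.14), and in the pyruvate dehydrogenase and TCA cycle list 3 of 30 rose and 1 fell (median 0.04), against 1 and 6 under that scaling (median -0.13). Without UR replicate 3, 1 of the 30 rose. The gene that fell, Me3, passed the detection filter through its ND arrays alone. Dld, the dehydrogenase subunit that pyruvate and oxoglutarate complexes share, had 10.79, 10.82 and 11.03 with UR, 10.16, 9.98 and 10.15 with the HFD and 10.44, 10.49 and 10.57 with the ND. The ND arrays lay between the others, and the log2 fold change against ND was 0.38 (standard error 0.07), not called with arrays scaled to a common median. Atp5a1, a subunit of ATP synthase, rose by 0.28 (standard error 0.07) on its brightest probe and changed by -0.07 on the other, a call lost if UR replicate 2 (adjusted p = 0.0739), UR replicate 3 (0.0619) or ND replicate 2 (0.0542) was left out. The study names the TCA cycle genes Pdhb, Sdhb and Fh1 in muscle for UR against HFD, another contrast than UR against ND. Against ND, Pdhb, Sdhb and Fh1 changed by -0.05, 0.08 and 0.04 and were not called. A dimmer probe gave 0.30 for Pdhb (limma adjusted p over probes 0.0285) and -0.29 for Sdhb (0.0225). Sdhd was not called either, at 0.18 (adjusted p = 0.0692), with UR arrays at 11.05 to 11.18, HFD arrays at 10.24 to 10.51 and ND arrays at 10.91 to 10.92, and it passed without HFD replicate 2 (0.0442) or HFD replicate 3 (0.0380). Of 26 genes of PGC-1, AMPK and mitochondrial biogenesis, 3 fell and 1 rose, against 5 and 0 with arrays scaled to a common median and 1 and 1 without UR replicate 2 or 3, and Sirt1, a deacetylase that senses NAD, fell by 0.29 (standard error 0.06). Nmrk2, a muscle kinase that makes NAD precursors from nicotinamide riboside, had 11.11, 11.43 and 11.29 with UR, 10.65, 11.03 and 10.72 with the HFD and 10.76, 9.90 and 10.33 with the ND, a log2 fold change of 0.94 (standard error 0.16, limma adjusted p = 0.00174), with 0.81 and 0.10 on its other kept probes.

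The 12 largest increases held 4 genes that adipocytes express, Lep, Adipoq, Scd1 and Hp, and their UR pools did not rise alike. Scd1 and Hp were not on the list of adipocyte markers given below, of which 1 fell. Lep, the adipokine leptin, had 8.35, 9.32 and 9.46 with UR, 8.26, 8.55 and 8.61 with the HFD and 8.09, 7.66 and 7.76 with the ND. UR pools 2 and 3 were high and UR pool 1 lay inside the HFD range, and the log2 fold change against ND was 1.20 (standard error 0.21, limma adjusted p = 0.00207). Adipoq, the adipokine adiponectin, had 8.82, 9.86 and 9.92 with UR, 8.87, 9.12 and 8.86 with the HFD and 8.77, 8.68 and 8.50 with the ND (0.88, standard error 0.21). Its UR pool 1 stood just above the highest ND array, and its call was lost without UR replicate 2 (0.0594) or UR replicate 3 (0.0502) and with robust variance estimates (0.0984). Scd1, the desaturase that makes monounsaturated fatty acids, had 11.15, 12.07 and 12.06 with UR, 11.37, 11.52 and 11.12 with the HFD and 11.12, 10.56 and 10.81 with the ND (0.93, standard error 0.20). Hp, haptoglobin, a plasma protein that adipocytes also secrete, had 7.72, 8.61 and 8.78 with UR, 7.86, 8.16 and 7.86 with the HFD and 7.59, 7.53 and 7.30 with the ND (0.90, standard error 0.19). In all 4 genes UR pools 2 and 3 carried most of the difference. Robust variance estimates ended the calls of Scd1 (0.0789) and Hp (0.0793).

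Of 9 adipocyte markers on the array, 5 were measured, of which 4 rose (Lep, Adipoq, Cidec and Car3) and 1 fell (Plin4). Cidec passed the detection filter through its UR arrays alone, which favoured its place among those that rose. Without UR replicate 2, or with robust variance estimates, 2 rose. The call of Car3, a carbonic anhydrase that muscle also expresses, at 0.27, was lost under 7 alternatives and its value was 0.17 without ND replicate 3 (limma adjusted p = 0.146). Of the markers not measured, the defining Fabp4, Plin1 and Retn were detected on no array by the probes present. The summed linear signal of the adipocyte markers was 26100 to 26500 on UR arrays, 23800 to 26000 on HFD arrays and 22600 to 28900 on ND arrays, so the sums of UR and ND overlapped. Linear sums weigh bright genes most. Plin4 had log2 means of 13.46 with UR and 13.78 with the ND, against 9.53 and 8.65 for Adipoq. These sums thus follow Plin4 far more than Adipoq or Lep. They also hold Car3, which rose while Plin4 fell. Cidec, a lipid droplet protein of white fat, was detected only on UR arrays and was at least 1.28-fold higher there, while Cidea, of brown and fat-laden cells, rose by 0.46 (standard error 0.07) with HFD arrays as high as UR. Cidea was the 1 of 3 measured brown adipocyte markers that was called, with sums of 30000 to 31200 on UR arrays, 32500 to 34800 on HFD arrays and 32400 to 33600 on ND arrays, and Ucp1, Elovl3 and Ppara were detected on no array. With a log2 mean of 9.46 with UR, Cidea made up only a small part of these sums. Of 22 genes of lipogenesis and triglyceride synthesis, 7 rose and 2 fell, with a median of 0.04 that turned to -0.07 with arrays scaled to a common median. Among these, Cidec, which rose, passed the detection filter through UR arrays alone, and Pnpla3, which fell, through ND arrays alone. Mgll, monoglyceride lipase, rose by 0.33 (standard error 0.05) and was not called under that scaling. The part of fat cells in the pools in these results was not tested.

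**Figure D4:**
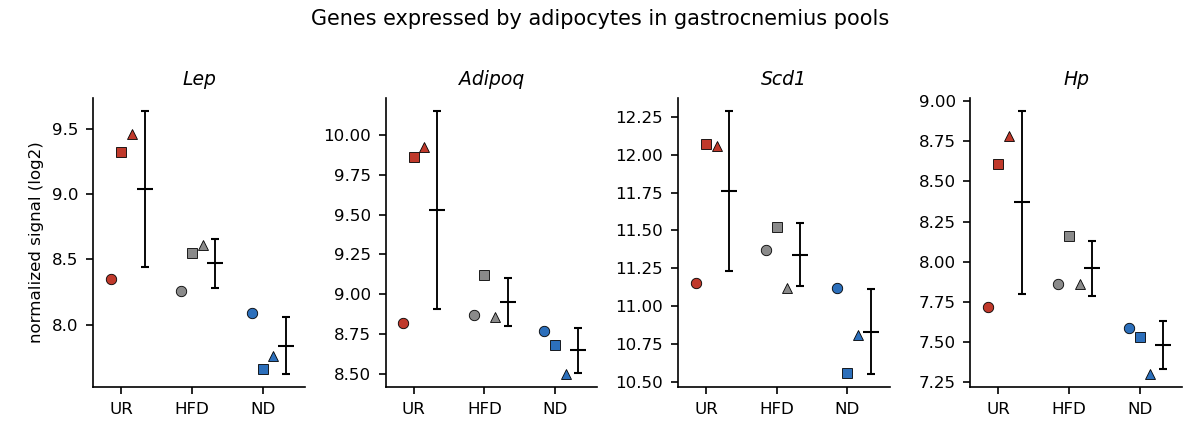
Normalized signal (log2) of 4 genes expressed by adipocytes in gastrocnemius for UR, HFD and ND pools (points, 1 per array; circles, squares and triangles stand for replicates 1, 2 and 3; bars are the mean and SD, n = 3). In each panel UR replicates 2 and 3 lie above all other arrays and UR replicate 1 lies near the HFD and ND arrays.

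Collagens and matrix proteins formed the broadest increase. Of 37 measured genes, 20 rose and 0 fell at an adjusted p under 0.05, with a median log2 fold change of 0.31, and with arrays scaled to a common median 16 rose and 1 fell (median 0.21, against a median over all genes of -0.10). Of the genes that rose, Col1a1, Col3a1, Col5a1, Col6a1, Col8a1, Col16a1, Sparc and Sparcl1 are named by the study from these samples as raised by UR. The count is thus not independent evidence of their direction. Basement membrane genes were among the largest changes of the list. Col15a1, a collagen of the muscle basement membrane zone, had 9.58, 9.72 and 9.51 with UR, 9.35, 9.40 and 9.22 with the HFD and 8.90, 8.76 and 8.87 with the ND, with the 3 diets fully apart (0.76, standard error 0.07, limma adjusted p = 2.82e-05). Col4a1 had 11.94, 11.89 and 11.65 with UR, 11.52, 11.69 and 11.62 with the HFD and 11.29, 11.19 and 11.03 with the ND (0.66, standard error 0.08). Its partner Col4a2, named here after its values were seen, rose by 0.62 (standard error 0.09), and Hspg2, which encodes the proteoglycan perlecan, by 0.64 (standard error 0.07). In Col4a1, Col4a2 and Hspg2 the HFD arrays lay between ND and UR or overlapped UR.

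The interstitial collagens Col1a1, Col5a1 and Col3a1 had another pattern. HFD arrays stayed at the ND level in Col1a1 and Col5a1, and in Col3a1 HFD replicates 2 and 3 lay below all ND arrays. Col1a1 had 10.07, 9.43 and 9.34 with UR, 8.77, 9.05 and 8.89 with the HFD and 9.04, 8.91 and 8.69 with the ND (0.74, standard error 0.15). Col5a1 had 10.13, 9.75 and 9.60 with UR, 9.27, 9.19 and 9.25 with the HFD and 9.26, 9.13 and 9.18 with the ND (0.64, standard error 0.10). UR pool 1 was the highest of the 3 in both genes, the reverse of the adipocyte genes. Col3a1 showed this most, with 9.56, 8.81 and 8.89 with UR, 8.58, 8.15 and 8.48 with the HFD and 8.68, 8.53 and 8.57 with the ND. Its log2 fold change of 0.49 (standard error 0.15, limma adjusted p = 0.0422) was 0.26 without UR replicate 1 (0.130), and the call was also lost without ND replicate 1 (0.0592), ND replicate 2 (0.108) or ND replicate 3 (0.0987). Col6a1 rose by 0.51 (standard error 0.07), Col8a1 by 0.47 (standard error 0.10), Col16a1 by 0.37 (standard error 0.07), and the matricellular genes Sparc and Sparcl1 by 0.48 each. The small proteoglycan Dcn, decorin, changed by 0.09 (adjusted p = 0.182), with UR arrays at 13.79 to 13.83, HFD arrays at 13.44 to 13.56 and ND arrays at 13.66 to 13.79.

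**Figure D5:**
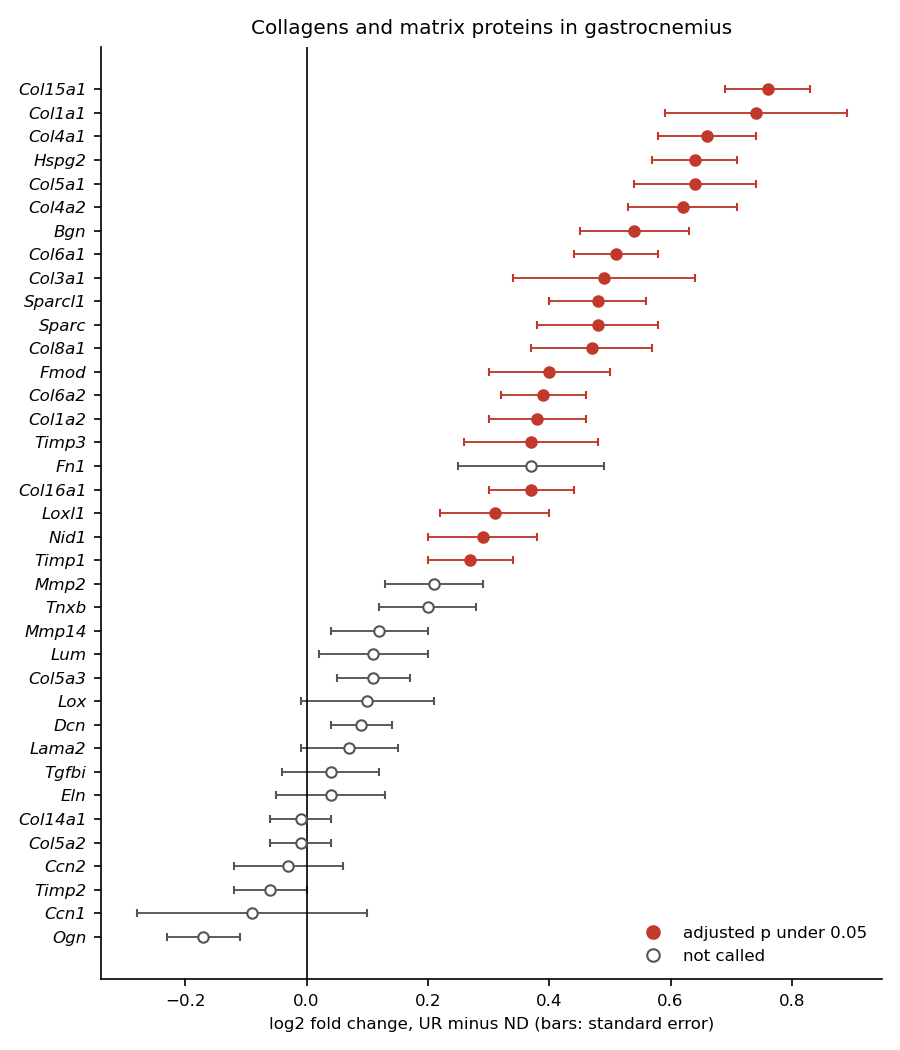
Log2 fold change, UR minus ND, of the 37 measured collagens and matrix proteins in gastrocnemius (points; bars are standard errors; filled points have an adjusted p under 0.05). The 20 called genes all lie to the right of 0, up to 0.76 for Col15a1.

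Markers of cells between the fibres were higher in part. All 8 fibroblast markers were detected on all 9 arrays, 2 rose (Col1a1 and Col3a1, also in the matrix list), and their summed linear signal was 18700 to 20400 on UR arrays, 15100 to 16200 on HFD arrays and 16900 to 18300 on ND arrays, without overlap. The fibroblast markers Dcn, Pdgfra, Dpt, Lum, Mfap5 and Pi16 were not called, and Dcn made up most of the sum on each array. All 3 measured smooth muscle markers of 6 on the array rose, with sums of 8630 to 9430 with UR, 6950 to 7460 with the HFD and 6650 to 7950 with the ND. Smtn, smoothelin, had 11.49, 11.56 and 11.61 with UR against 11.30, 11.30 and 11.33 with the ND (0.24, standard error 0.05). The other kept probe of Smtn gave 0.16 (limma adjusted p over probes 0.118). With UR replicate 1 or UR replicate 3 left out 1 of the 3 was called, with UR replicate 2 left out 2, and with arrays scaled to a common median 0. Of 7 measured macrophage markers 2 rose, with sums of 2400 to 2760 with UR, 1900 to 2010 with the HFD and 2110 to 2210 with the ND. Lyz2, lysozyme of myeloid cells, rose by 0.49 (standard error 0.08), and C1qb, of complement, by 0.29 (standard error 0.06). The other kept probe of Lyz2 gave 0.16 (limma adjusted p over probes 0.345). Of 7 endothelial markers 2 rose and 1 fell, with sums of 10000 to 10500 with UR, 8930 to 9550 with the HFD and 8740 to 10900 with the ND. Emcn, endomucin, had 10.57, 10.71 and 10.69 with UR, 10.47, 10.43 and 10.48 with the HFD and 10.22, 10.24 and 10.14 with the ND (0.46, standard error 0.05). Cldn5, the claudin of endothelial tight junctions, had 9.77, 9.78 and 10.03 with UR, 10.21, 10.18 and 10.35 with the HFD and 11.25, 10.43 and 10.22 with the ND, and its change of -0.77 (standard error 0.18) was -0.47 without ND replicate 1 (limma adjusted p = 0.00505) and lost its call with robust variance estimates (0.0963). The part of these cells in the matrix result was not tested.

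Of the other markers, 1 of 3 measured Schwann cell markers rose, with sums of 2250 to 2430 with UR, 2040 to 2050 with the HFD and 2000 to 2060 with the ND, and S100b was detected on no array. Erythroid markers had sums of 57100 to 99300 with UR, 57700 to 75700 with the HFD and 58400 to 80500 with the ND. Satellite cell, lymphocyte, erythroid, hepatocyte and keratinocyte markers were not called, no neutrophil marker was measured, and Alb, Apoa1, Fgb and Ttr of hepatocytes and Krt1, Krt14, Krt5 and Lor of keratinocytes were detected on no array.

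Chemokine, chaperone and antigen presentation genes rose in part. In the chemokine and cytokine list 6 of 17 rose and 0 fell at an adjusted p under 0.05, although that list also holds genes the study groups there which are not cytokines, namely Nmrk2 and the metalloprotease gene Adam9. Nmrk2, Adam9 and Pf4, all among those that rose, were named by the study from these samples. With arrays scaled to a common median, 3 rose and 1 fell. Pf4, the platelet chemokine CXCL4, had 8.91, 8.81 and 8.75 with UR, 8.30, 8.31 and 8.30 with the HFD and 8.50, 8.38 and 8.43 with the ND (0.39, standard error 0.06). Ccl11, eotaxin, had 9.64, 9.65 and 9.65 with UR, 9.34, 9.28 and 9.18 with the HFD and 9.29, 9.25 and 9.36 with the ND (0.34, standard error 0.06), with 0.08 on its other kept probe. UR arrays were above all others in both genes. Cxcl12 rose by 0.35 (standard error 0.08), a call lost without UR replicate 2 (limma adjusted p = 0.0599) or ND replicate 3 (0.0531), and Adam9 by 0.22, lost without any one of UR replicates 1 and 3, ND replicates 1 and 2 and HFD replicate 1. The other kept probes of Cxcl12 gave 0.21 and 0.15 (limma adjusted p over probes 0.0285 and 0.0949). Il15 changed by 0.13 and Itgbl1 by 0.11 on their brightest probes and were not called, and a dimmer probe of Il15 gave 0.29 (adjusted p over probes 0.0209). Of the 27 measured genes that the study names in muscle, most of them described above, 18 rose and 1 fell against ND (median 0.38). The study named them for UR against HFD, with the same UR arrays, so the count is not independent evidence of their direction.

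Of 29 chaperones and genes of the unfolded protein response, 10 rose and 2 fell, and with arrays scaled to a common median 4 rose and 3 fell. Hsp90b1, the endoplasmic reticulum chaperone GRP94, had 12.55, 12.78 and 12.43 with UR, 12.19, 12.15 and 12.21 with the HFD and 11.98, 12.01 and 12.13 with the ND (0.55, standard error 0.07). The disulfide isomerase gene Pdia3 rose by 0.45 (standard error 0.08), and Pdia4, Pdia6 and Calr of the same compartment also rose. Chac1, an enzyme that degrades glutathione and is induced by the unfolded protein response, went the other way, with 10.99, 11.03 and 11.56 with UR, 11.09, 11.51 and 11.29 with the HFD and 12.16, 12.40 and 12.04 with the ND (-1.01, standard error 0.14, limma adjusted p = 3.93e-04). UR and HFD arrays overlapped, both below ND. Of 11 genes of antigen presentation, 2 rose, against 0 with arrays scaled to a common median or without UR replicate 1, ND replicate 2 or ND replicate 3, and 4 without UR replicate 2. H2-DMb1, a chaperone of class II peptide loading, had an adjusted p of 0.0495 and lost its call in 9 alternatives. The call of the invariant chain gene Cd74, at 0.43, fell away without UR replicate 1 (0.22, adjusted p = 0.137), ND replicate 2 (0.124), ND replicate 3 (0.119) or HFD replicate 3 (0.0513). Its UR pool 1 was again the highest, at 9.85 against 9.24 and 9.22 in the other UR pools. The other kept probe of Cd74 gave 0.37 (limma adjusted p over probes 0.0879).

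The remaining lists held few calls. Of 17 immediate early genes 1 fell, Cebpb, by 0.42 (standard error 0.06), while Fos varied widely, at 9.41, 9.99 and 10.05 with UR, 9.84, 9.96 and 12.19 with the HFD and 10.17, 11.80 and 10.56 with the ND (-1.03, adjusted p = 0.169), and passed without HFD replicate 3 (0.0329). Of 28 antioxidant genes 4 fell and 1 rose. Catalase, Cat, rose by 0.37 (standard error 0.06) on its brightest probe and changed by -0.08 on the other, and the secreted peroxidase gene Gpx3 fell by 0.37 (standard error 0.07). Of 28 calcium handling genes 5 rose and 2 fell, Chrnb1, a subunit of the acetylcholine receptor, rising by 0.33 (standard error 0.05). Of 13 myogenic genes 3 rose and 1 fell, of 48 ribosomal proteins 3 rose and 3 fell, of 27 proteasome subunits 2 rose and 0 fell, of 17 interferon-stimulated genes 1 rose and 1 fell, of 17 cholesterol genes 1 rose and 0 fell, and of 16 genes of branched-chain amino acid catabolism 0 rose and 1 fell, all at an adjusted p under 0.05 by limma. These small counts moved with the processing. With arrays scaled to a common median, 1 calcium handling gene rose and 9 fell, 0 antioxidant genes rose and 8 fell, 1 ribosomal protein rose and 12 fell, 0 proteasome subunits rose and 3 fell, 0 branched-chain catabolism genes rose and 5 fell, 0 immediate early genes rose and 4 fell, and 1 myogenic gene rose and 2 fell. Without UR replicate 2 or ND replicate 1, 2 calcium handling genes rose. Without UR replicate 1, 1 myogenic gene rose and 0 ribosomal proteins fell, and without ND replicate 1, 1 antioxidant gene fell. Myod1, 1 of the 3 myogenic genes that rose with all arrays, passed the detection filter through its UR arrays alone.

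The other genes among the 12 largest increases and decreases fell into patterns by where the HFD arrays lay. BC048679, a gene known by its clone name, had 10.26, 10.26 and 10.64 with UR, 10.30, 10.30 and 10.49 with the HFD and 9.39, 9.54 and 9.25 with the ND (0.99, standard error 0.10). Rab15, a small GTPase of endosome recycling, had 12.25, 12.20 and 12.12 with UR, 12.07, 12.21 and 12.14 with the HFD and 11.22, 11.39 and 11.29 with the ND (0.89, standard error 0.06, limma adjusted p = 9.21e-07). In both, UR and HFD overlapped and ND stood apart. For the genes that follow, UR stood apart from HFD and ND. Ffar3, a receptor for short-chain fatty acids, had 9.38, 9.35 and 9.53 with UR, 10.38, 10.33 and 10.41 with the HFD and 10.21, 10.21 and 10.12 with the ND (-0.76, standard error 0.06). The predicted gene Gm5796 had 9.49, 9.60 and 9.51 with UR, 8.32, 8.90 and 8.79 with the HFD and 8.40, 8.63 and 8.42 with the ND (1.05, standard error 0.11). Ifi27l2a, an interferon-inducible gene, had 9.92, 10.49 and 10.37 with UR, 9.66, 9.55 and 9.52 with the HFD and 9.53, 9.34 and 9.28 with the ND (0.87, standard error 0.11). UR arrays of Ifi27l2a all lay above the others, with UR pool 1 the nearest to them. Lrrc30, which encodes a leucine-rich repeat protein, had 8.65, 8.72 and 8.85 with UR, 9.30, 9.27 and 9.34 with the HFD and 9.64, 9.63 and 9.53 with the ND (-0.86, standard error 0.06), a stepwise order of the 3 diets. Acin1, which encodes an RNA-binding protein of the splicing machinery, had 8.34, 8.43 and 8.39 with UR, 9.35, 9.23 and 9.42 with the HFD and 9.25, 9.15 and 9.14 with the ND on its brightest probe (-0.80, standard error 0.06). Its other kept probes gave 0.21 (adjusted p over probes 0.0180) and -0.03, so the probes of Acin1 disagree. Among 869 genes with several kept probes and a call on any of them, 17 (1.96%) had called probes in opposite directions.

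The same contrast in the other tissues differed from that in muscle for many genes. The difference of the UR effect against ND, muscle minus epididymal white fat, was called for 3558 of 8741 genes (40.7%), and muscle minus liver for 4090 of 8116 (50.4%), in limma models of 18 arrays. Per2 rose in muscle by 1.19 and had -0.36 in fat, a difference of 1.54 (standard error 0.23, adjusted p = 2.36e-05), while its liver value of 1.95 was higher than that of muscle. Dbp had 2.44 in muscle, 1.54 in fat and 2.37 in liver, and only the difference from fat was called (0.89, standard error 0.17), the one from liver being 0.07 (standard error 0.26, adjusted p = 0.839). Ciart had 2.16 in muscle, 0.63 in fat and 2.45 in liver. Nr1d1, at 0.70 in muscle, had 0.07 in fat and -0.35 in liver, and both differences were called, whereas Nr1d2, at 0.41 in muscle, had 1.90 in liver. Arntl was lower with UR in each tissue, at -0.64 in muscle, -0.70 in fat and -0.78 in liver, with differences of 0.06 (standard error 0.12) and 0.14 (standard error 0.14) that did not pass the test. The sources used here do not say if the tissues of a pool number share mice, and the model took all arrays as independent.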

How the data were processed

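Gastrocnemius RNA of 3 pools per diet was hybridised to Illumina MouseWG-6 v2 BeadChips. The authors deposited non-normalized probe signals (intensity on a linear scale, lowest value 77.3; whether background was subtracted is not stated) per probe and array. The authors' scanner software gave each signal a detection p-value, as deposited. They also deposited quantile-normalized log2 values, whose muscle columns equalled the fat columns in all 45281 rows and were not used. Array signals give no read depth, so the number of arrays limits the precision.

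Quantile normalization covered the 9 muscle arrays, followed by log2 transformation, and 16332 probes with a detection p-value under 0.05 on all 3 arrays of a diet were kept. Symbols came from GEO's platform annotation: 34885 of 34903 annotated probes had 1 symbol, 18 had several and were not named, and 34807 matched RefSeq. The brightest kept probe stood for a gene, and an adjusted p is that of limma 3.58.1 (intensity trend, R 4.3.3, Python 3.11.15) with Benjamini-Hochberg adjustment, tested on simulated data. Models of 18 arrays compared tissues. Rank products, which the methods name, were not run, because they take their false discovery rate from permuted ranks over genes.

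Named were the 12 largest increases and decreases without overlap between diets, all clock genes and study-named genes, up to 4 genes of smallest p per list, and markers; Myh4, Myh1, Hadha, Foxo1 and Col4a2 were added after their values were seen. Members and lists were chosen with earlier results of these data known. Alternatives covered background correction, scaling, probe choice and filter, variance model, replicate block and each array left out.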

Additional observations from a re-analysis of the deposited data

Results flagged for a closer look

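The difference of the UR effect against ND between tissues passed the test (limma, adjusted p under 0.05) for 11 of 20 named genes tested against epididymal fat, where 40.7% of all genes passed. Each value is the effect in muscle minus that in the other tissue, on the log2 scale. Besides clock genes, the named genes were the largest increases and decreases in muscle. The muscle effect is part of each difference, so this choice favoured a difference from the other tissue. Ciart differed by 1.53 (2.16 in muscle, 0.63 in fat, adjusted p = 3.65e-09), Per2 by 1.54 (1.19 and -0.36, 2.36e-05), Per3 by 0.62 (0.38 and -0.25, 1.26e-04) and Dbp by 0.89 (2.44 and 1.54, 3.36e-04). Nr1d1 differed by 0.64 (0.70 and 0.07), Cry2 by 0.54 (0.20 and -0.34), Per1 by 0.71 (0.65 and -0.06, 0.0437) and Rora by 0.25 (-0.34 and -0.60, 0.0196). Gm5796 differed by 0.79, Actn3 by -1.16 (-1.48 and -0.31) and Angptl4 by -0.94 (-0.99 and -0.05).

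Against liver, 10 of 17 named genes tested passed, where 50.4% of all genes did, so neither count stands far from the share of all genes. Nr1d2 differed by -1.50 (0.41 in muscle, 1.90 in liver, 1.54e-09), Bhlhe40 by -1.68 (0.87 and 2.55), Clock by 0.96 (-0.14 and -1.10), Nr1d1 by 1.05 (0.70 and -0.35) and Csnk1d by 0.55 (-0.0068 and -0.56). Chac1 differed by -1.10 (-1.01 and 0.10), Irs2 by 0.84 (-1.06 and -1.90, 0.0435), Per2 by -0.76 (1.19 and 1.95, 0.0223), Rora by -0.21 (0.0465) and Cry2 by -0.29 (0.0488). Groups of 3 arrays were too small to look for single outlying arrays.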

How the results depend on the processing

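Of 131 called genes among 170 named, 57 had no lost call counted under any alternative other than the methods' t-test. This count passed over turned signs and settings in which a gene was not measured. The 57 thus include Cycs, not called with the mean of kept probes (0.0053, limma adjusted p = 0.953). They also include Cidec and Pnpla3, which a filter for detection on every muscle array removes. By the same count, 45 genes lost the call when 1 array was left out. With arrays scaled to a common median 37 lost it, and with robust variance estimates 19. The 37 leave out Psmd8, whose sign turned under that scaling (limma adjusted p = 0.958). The count of 1598 (873 higher, 725 lower with UR) became 326 higher and 1744 lower with median scaling, 611 (363 and 248) at an adjusted p under 0.01, 2539 (1357 and 1182) over all kept probes and 110 (59 and 51) at an unadjusted p under 0.05 with a log2 change over 0.5. The methods' t-test gave 2493 (1194 and 1299) unadjusted and 57 (26 and 31) after Benjamini-Hochberg. Leaving out each array gave 846 to 1637 calls, 502 to 894 higher and 344 to 743 lower, the fewest without UR replicate 2. The other alternatives gave 1401 to 1767 calls. With the replicate number as a block there were 1603 (886 and 717). Same-numbered UR and ND arrays correlated at 0.03, 0.07 and 0.01 in their deviations, and 2 of 3 UR arrays correlated best with their own number, so the numbers were not taken as pairs. Under that block Myh4 (-1.79, limma adjusted p = 0.00558) and Tef (0.29, 0.0495) passed the threshold and Gbe1 (0.0526) did not. Differences from fat and liver stayed within 1.5 times, at 3122 to 3558 and 3757 to 4743 genes. Signs turned for Csnk1e (0.01) and Cycs (0.0053) with the mean of kept probes and for Psmd8 (-0.0072) with median scaling; the cause was not tested. Dim genes such as Per3 and Cidec, detected with UR alone, have only a lower bound on their change.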
